A study of Mus musculus with 7 samples.

Results

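NK and innate lymphoid genes were followed in the lin- bone marrow of HRP-2 knockout mice through 9 genes, Klrd1, Klre1, Il2rb, Il18r1, Gzma, Nkg7, Ccl5, Gata3 and Samd3, out of 25033 gene symbols counted. The genes were listed by name and were chosen by their levels in these same 7 mice, that is, with the genotype differences compared here in view. Their levels by genotype are therefore a description and carry no test. All 9 passed the filter on low counts.

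RNA came from lin- bone marrow, from which cells with markers of mature blood lineages had been depleted, of 3 wild type (WT, Hrp2+/+) and 4 knockout (KO) mice. The knockout is systemic, carried by C57BL/6N-Hdgfrp2<tm1b (KOMP)Wtsi>/Tcp animals, which lack the chromatin-binding protein HRP-2, encoded by the gene now named Hdgfl2. The mice were 6 to 8 weeks old and the labels name no treatment. Each mouse gave 1 library of 3′ ends, so that a transcript yields 1 counted fragment whatever its length. Levels are in CPM, the reads of a gene relative to the mouse's reads on genes, after scaling of libraries by TMM factors. How fully each gene was captured was not tested, so levels of different genes can be set side by side only roughly.

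NK cells are innate lymphocytes that kill infected or transformed cells through secretory granules, without a rearranged antigen receptor, and they mature in the bone marrow. They read the health of a target cell through lectin-like and other surface receptors, several of which are encoded side by side in the NK gene complex, and they depend on IL-15, which signals through the receptor chain encoded by Il2rb. The other innate lymphoid cells share the early steps of this path but mostly secrete cytokines, and those of group 2 (ILC2) rely on the transcription factor Gata3.

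The libraries held between 3525665 and 5605158 reads on genes, and 3 reads corresponded to between 0.561 and 0.84 CPM. Hdgfl2 had 228, 156 and 168 reads in the WT mice and 13, 3, 8 and 2 reads in the KO mice, a log2 fold change of -5.09 (SE 0.34, adjusted p = 1.38e-07 in edgeR's quasi-likelihood test with Benjamini-Hochberg adjustment). Myeloid and progenitor genes were abundant, with Mpo between 4746 and 6810 CPM and Kit between 85.1 and 122 CPM over the 7 mice. A pair of KO libraries stood apart. KO replicate 3 had 559 reads of the Y-linked gene Ddx3y and 3 reads of Xist, whereas the other 6 mice had 0 to 4 and 848 to 1457 reads. KO replicate 4 had 572 CPM of the platelet chemokine gene Pf4, against 20.8 to 109 CPM in the other KO mice and 104 to 190.2 CPM in the WT mice.

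Of genes that define NK cells, Ncr1, the activating receptor NKp46, had 32 to 138 reads per mouse, Klrb1c, which encodes NK1.1, had 155 to 276, Tbx21 had 63 to 174 and Eomes had 20 to 90. These NK genes were thus read in each mouse. Others were at or near 0. Among them, Prf1, the pore-forming protein of cytotoxic granules, had 8, 0 and 0 reads in WT mice and 1, 1, 5 and 1 in KO mice. S1pr5, an exit receptor of mature NK cells, had 0 to 9. The receptor genes Klra4 and Klra8 had none, but they belong to the multigene Ly49 family, whose reads may be shared with near copies. Genes of ILC2 were also read, with Il1rl1, the IL-33 receptor, at 106 to 258 reads and Rora at 63 to 126, but Il5 had no read in any mouse. T cells use most of the 9 genes too, and Cd3e, a chain of the T cell receptor complex, had 29 to 93 reads. In lin- bone marrow as a whole, fewer cells of a type and less RNA per cell cannot be told apart.

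On GRCm38 the receptor genes Klre1 (chr6:129577905-129585827, plus strand) and Klrd1 (chr6:129591782-129598775, plus strand) lay 5955 bases apart in the NK gene complex. Il18r1 (chr1:40465552-40500854, plus strand) lay 137 bases from Il1rl1 and 14508 bases from Il18rap, 2 other receptor genes of the IL-1 family. Il2rb was at chr15:78479256-78495271, Gata3 at chr2:9857078-9890034, Gzma at chr13:113093825-113100981 and Ccl5 at chr11:83525778-83530518, all on the minus strand. Nkg7 at chr7:43437073-43438249 and Samd3 at chr10:26229707-26272172 were on the plus strand. All 9 are annotated as protein-coding.

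Promoter windows of RefSeq on GRCm38.p6, from 250 bases before to 50 bases after a start site, were matched for 6 of the 9 genes and gave 9 windows. Klrd1, Il2rb and Ccl5 had no entry. Windows of the 3 genes whose levels did not overlap between genotypes are shown with that of Nkg7, whose level was alike in both, so that the letters can be read beside the values. Each is written 5′ to 3′ on the strand of the gene, and capitals mark matches on either strand to the letters of 5 motifs, which do not overlap in the windows shown. These are TCACACC for T-box factors such as T-bet and Eomes, TGTGGT for RUNX factors, CCGGAA for ETS factors, AGATAA for factors of the GATA family and TTCNNNGAA for STAT factors.
Samd3, chr10:26229457-26229756, plus strand: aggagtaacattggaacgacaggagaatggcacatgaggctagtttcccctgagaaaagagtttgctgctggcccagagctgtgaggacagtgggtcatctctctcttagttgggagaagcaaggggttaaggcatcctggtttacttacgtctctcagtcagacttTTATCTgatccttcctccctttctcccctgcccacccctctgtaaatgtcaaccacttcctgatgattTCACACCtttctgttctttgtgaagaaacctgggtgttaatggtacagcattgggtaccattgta
Klre1, chr6:129577963-129578262, plus strand: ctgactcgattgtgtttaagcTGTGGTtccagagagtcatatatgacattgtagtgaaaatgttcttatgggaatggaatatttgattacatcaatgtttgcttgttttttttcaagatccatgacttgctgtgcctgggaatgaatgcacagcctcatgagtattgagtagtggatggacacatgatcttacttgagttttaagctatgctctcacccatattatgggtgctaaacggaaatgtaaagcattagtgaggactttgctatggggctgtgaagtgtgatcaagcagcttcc
Il18r1, chr1:40465756-40466055, plus strand: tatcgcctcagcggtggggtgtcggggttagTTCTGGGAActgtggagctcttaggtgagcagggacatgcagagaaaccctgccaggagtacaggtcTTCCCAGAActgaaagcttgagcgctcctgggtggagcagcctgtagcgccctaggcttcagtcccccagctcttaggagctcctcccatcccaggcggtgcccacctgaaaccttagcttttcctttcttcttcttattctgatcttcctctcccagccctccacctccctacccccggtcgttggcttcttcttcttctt
Nkg7, chr7:43436888-43437187, plus strand: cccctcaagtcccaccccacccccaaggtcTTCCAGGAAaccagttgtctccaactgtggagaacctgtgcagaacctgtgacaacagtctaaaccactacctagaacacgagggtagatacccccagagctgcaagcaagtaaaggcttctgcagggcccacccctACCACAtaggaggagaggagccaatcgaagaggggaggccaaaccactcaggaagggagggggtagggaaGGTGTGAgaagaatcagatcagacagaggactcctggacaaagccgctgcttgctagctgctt

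The T-box letters stood at -15 in the Samd3 window and at -13 in the Nkg7 window, counted to the leftmost letter with the start site as 0, and in 3.98% of all 32851 promoter windows of the same length. The GATA letters were found in Samd3 alone among the 9 windows, at -83, and in 11.2% of all windows. The RUNX letters were in 4 of the 9 windows, among them Klre1 at -229, Nkg7 at -83 and Gzma at -50, and in 16.8% of all windows. The STAT letters occurred at -219 and -152 in the Il18r1 window shown and at -220 in Nkg7, against 8.3% of all windows, and the ETS letters in the Gata3 window, against 14.9%. Of the other 2 windows of Il18r1 and the other window of Klre1, 1 held a match, RUNX at 21 in Il18r1. Nkg7 held 3 of the 5 motifs. These are matches of letters and not measured binding sites.

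In WT mice Nkg7 was highest at 293 ± 32.9 CPM (SD, n = 3). Il2rb and Ccl5 followed, and their ranges of 219 to 258 and 203 to 258 CPM overlapped. Klrd1 came next at 68.1 ± 6.75 CPM (SD, n = 3), without overlap with its neighbours in that order. Gzma and Il18r1 overlapped, and so did Gata3, Samd3 and Klre1, at 30.2, 28.6 and 25.4 CPM, all 3 of which also overlapped with Gzma but not with Il18r1. In KO mice Il18r1, at 24.4 ± 6.61 CPM (SD, n = 4), was at the level of Gata3, at 23.4 ± 8.06 CPM (SD, n = 4), and below the mean of Gzma, at 44.7 ± 17.8 CPM (SD, n = 4).

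**Figure D1:**
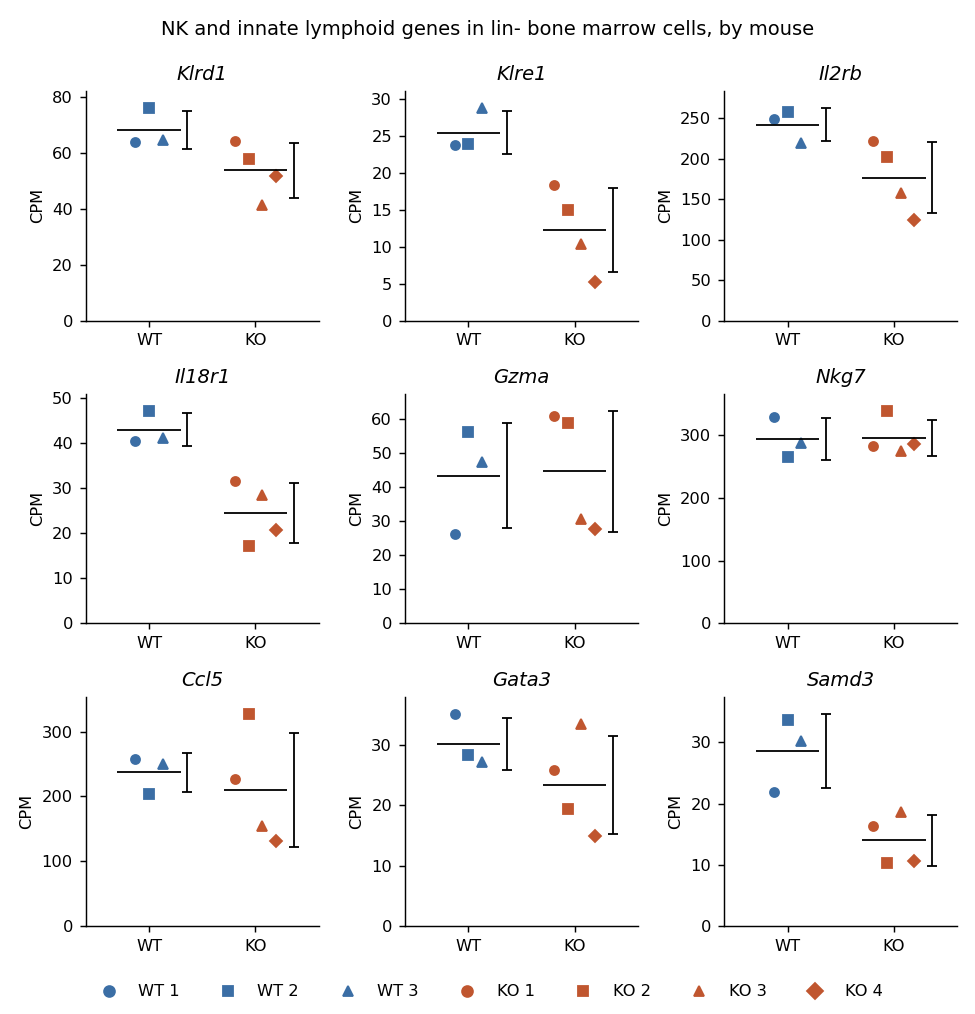
Level in CPM (vertical axes, each from 0) of the 9 NK and innate lymphoid genes in 3 WT mice (blue) and 4 KO mice (orange), 1 symbol per mouse, with the mean as a line and the SD as a bar. Every KO mouse lies below every WT mouse for Klre1, Il18r1 and Samd3, and the genotypes overlap for the other 6 genes.

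The surface receptor Klrd1 encodes CD94, which pairs with NKG2 proteins to read the non-classical MHC molecule Qa-1. Its level was 63.8, 75.9 and 64.6 CPM in the WT mice and 64.1, 57.6, 41.3 and 51.6 CPM in the KO mice. KO replicate 1 was within the WT range and the other 3 KO mice were below it, with the lowest level in replicate 3. The means were 68.1 ± 6.75 CPM (SD, n = 3) and 53.6 ± 9.70 CPM (SD, n = 4), a fitted log2 fold change of -0.34 (SE 0.17).

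Klre1 encodes another lectin-like receptor of NK cells, which pairs with the products of Klri1 and Klri2. It had 23.7, 23.8 and 28.7 CPM in the WT mice and 18.3, 15.0, 10.3 and 5.23 CPM in the KO mice. All 4 KO mice were below all 3 WT mice, with replicate 4 lowest. The fitted log2 fold change was -1.05 (SE 0.31), between means of 25.4 ± 2.86 CPM (SD, n = 3) and 12.2 ± 5.68 CPM (SD, n = 4). The number of reads behind these values was 85 to 108 in the WT mice and 21 to 94 in the KO mice. In the WT mice the coefficient of variation, 11.3%, was close to the 9.98% that counting alone gives, whereas in the KO mice it was 46.6% against 12.9%. Of its partner genes, Klri1 had no read in any mouse, and Klri2, looked up after its values had been seen, was 14.7 ± 3.39 CPM (SD, n = 3) in WT and 13.9 ± 7.93 CPM (SD, n = 4) in KO mice, with overlap.

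Among cytokine receptors, Il2rb encodes the shared chain of the IL-2 and IL-15 receptors (CD122). Its level was 249, 258 and 219 CPM in the WT mice and 221.5, 202, 158 and 124 CPM in the KO mice. KO replicate 1 was just above the lowest WT mouse, and the other 3 KO mice were below all WT mice. The means were 242 ± 20.3 CPM (SD, n = 3) and 176 ± 43.7 CPM (SD, n = 4), a fitted log2 fold change of -0.46 (SE 0.17). With 499 to 1140 reads per mouse, counting gave a coefficient of variation of only 3.23% in WT and 3.40% in KO mice, less than the 8.41% and 24.8% observed.

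Il18r1 encodes the ligand-binding chain of the receptor for IL-18, a cytokine that drives interferon gamma production by NK cells. Its level was 40.4, 47.0 and 41.2 CPM in the WT mice and 31.5, 17.2, 28.4 and 20.7 CPM in the KO mice. The genotypes did not overlap, and the lowest mouse was KO replicate 2, not replicate 4 as for Klre1. The means of 42.9 ± 3.64 CPM (SD, n = 3) and 24.4 ± 6.61 CPM (SD, n = 4) corresponded to a fitted log2 fold change of -0.80 (SE 0.22). The adjacent receptor genes overlapped between genotypes. Il18rap, the second chain of the IL-18 receptor, was 59.2 ± 19.3 CPM (SD, n = 3) and 53.5 ± 9.27 CPM (SD, n = 4), and Il1rl1 was 40.2 ± 8.81 CPM (SD, n = 3) and 30.8 ± 11.8 CPM (SD, n = 4). For Il1rl1 the overlap came from KO replicate 3 alone, at 48.2 CPM, and the other KO mice were below all WT mice. Their fitted log2 fold changes were -0.14 and -0.38, each with an adjusted p = 0.999 in edgeR's quasi-likelihood test. With 1 mouse left out that of Il18rap ranged from -0.30 to 0.15 and that of Il1rl1 from -0.69 to -0.25. The difference between Il18r1 and its neighbours was not tested, and Il18r1 was chosen with its genotype difference in view.

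The effector genes showed no such gap. Gzma, a serine protease of cytotoxic granules, had 26.3, 56.3 and 47.6 CPM in the WT mice and 61.0, 59.0, 30.8 and 27.9 CPM in the KO mice. KO replicates 1 and 2 were above all WT mice, and replicates 3 and 4 were near the lowest WT mouse. The means were 43.4 ± 15.4 CPM (SD, n = 3) and 44.7 ± 17.8 CPM (SD, n = 4), and the fitted log2 fold change of 0.05 (SE 0.33) changed sign with the mice included, from -0.21 without WT replicate 1 to 0.29 without WT replicate 2.

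Nkg7, a membrane protein of cytotoxic granules that takes part in their release, was close between genotypes. It had 329, 264 and 287 CPM in the WT mice and 283, 338, 274 and 285 CPM in the KO mice. The highest and the lowest mouse were KO replicate 2 and WT replicate 2, and the ranges covered each other almost wholly. The means of 293 ± 32.9 CPM (SD, n = 3) and 295 ± 28.9 CPM (SD, n = 4) gave a fitted log2 fold change of 0.01 (SE 0.13), with 944 to 1626 reads per mouse.

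Ccl5, a chemokine that draws T cells, monocytes and NK cells, had 258, 203 and 251 CPM in the WT mice and 227, 327, 154 and 132 CPM in the KO mice. KO replicate 2 was the highest of the 7 mice and KO replicates 3 and 4 the lowest. The fitted log2 fold change was -0.18 (SE 0.29), between means of 237 ± 29.8 CPM (SD, n = 3) and 209.9 ± 88.1 CPM (SD, n = 4). It lay between -0.47 without KO replicate 2 and -0.01 without KO replicate 4.

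Gata3, the transcription factor of ILC2 and of T helper type 2 cells, had 35.1, 28.3 and 27.1 CPM in the WT mice and 25.8, 19.3, 33.4 and 14.9 CPM in the KO mice. Only KO replicate 3 was within the WT range, and the other 3 KO mice were below it, which differed from Klrd1, Il2rb and Ccl5, for which replicate 3 was among the low mice. The means were 30.2 ± 4.32 CPM (SD, n = 3) and 23.4 ± 8.06 CPM (SD, n = 4), and the fitted log2 fold change was -0.36 (SE 0.25). It was -0.59 without KO replicate 3 and -0.20 without KO replicate 4.

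Samd3 encodes a protein with a sterile alpha motif whose function is little known. It had 21.9, 33.6 and 30.3 CPM in the WT mice and 16.3, 10.4, 18.7 and 10.7 CPM in the KO mice. All KO mice were below all WT mice, and the nearest were WT replicate 1 and KO replicate 3. The means of 28.6 ± 6.01 CPM (SD, n = 3) and 14.0 ± 4.13 CPM (SD, n = 4) gave a fitted log2 fold change of -1.02 (SE 0.26), with 43 to 120 reads per mouse.

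Across the 9 genes, 7 had a fitted log2 fold change below 0, where 50.2% of all 11265 tested genes did, and the median was -0.36 beside -0.001 over all tested genes. The levels did not overlap and were lower in KO for 3 genes, Klre1, Il18r1 and Samd3, where 2.79% of all tested genes had such a gap, and no member was higher without overlap, where 2.37% of all were. None of the 9 was past an adjusted p of 0.25, the threshold of the study, in edgeR's quasi-likelihood test, as were 0.0178% of all tested genes, 0.00888% lower and 0.00888% higher. DESeq2 placed 1 of the 9 past it, Samd3, beside 0.194% of the genes to which it gave an adjusted p. The study's own heat map of differentially expressed genes holds Klre1, Il18r1 and Samd3. Because these differences chose the genes, nothing is read from the counts. The mean level in KO mice was 48.0% of the WT mean for Klre1, 49.0% for Samd3 and 57.0% for Il18r1. It was 72.9% for Il2rb, 77.6% for Gata3, 78.8% for Klrd1 and 88.4% for Ccl5, against 101% for Nkg7 and 103% for Gzma.

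**Figure D2:**
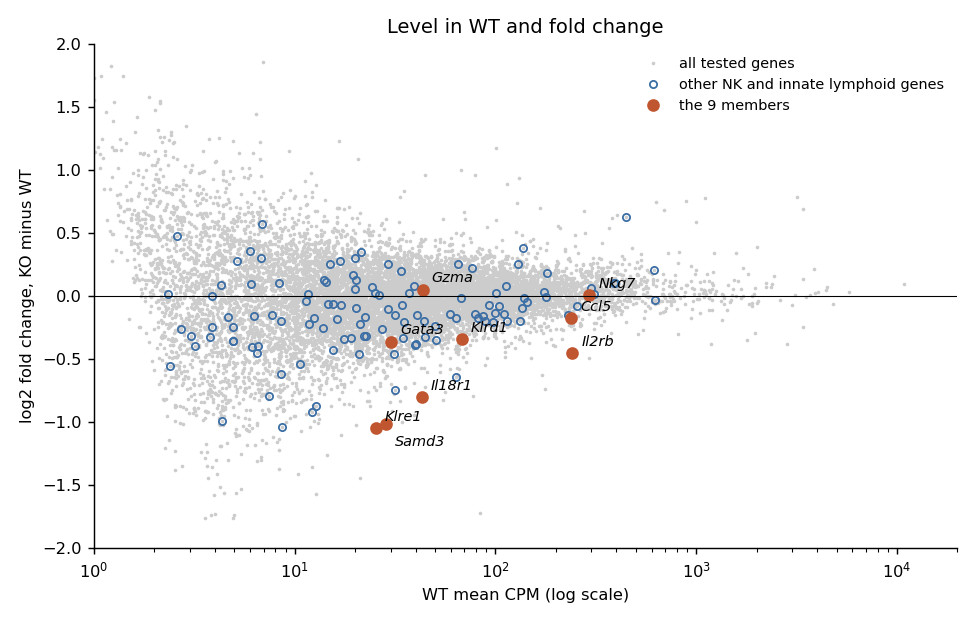
Fitted log2 fold change of KO over WT (vertical axis) against the mean level in WT mice in CPM (horizontal axis, log scale) for the tested genes (grey), other NK and innate lymphoid genes (blue circles) and the 9 genes named (orange). Klre1, Samd3 and Il18r1 lie at -1.05, -1.02 and -0.80, Nkg7 and Gzma lie near 0, and 16 tested genes, Hdgfl2 among them, fall outside the axes.

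The 4 KO mice did not carry the difference alike. The summed level of the 9 genes was 1047, 990.4 and 996 CPM in the WT mice and 948, 1045, 749 and 672 CPM in the KO mice, and this sum is made up mostly of Nkg7, Ccl5 and Il2rb. Only KO replicate 2 was within the WT range in the sum, replicate 1 was just below it, and replicates 3 and 4 were lowest. Taken gene by gene, the median level relative to the WT mean was 91.6% in KO replicate 1, 83.4% in replicate 2, 65.3% in replicate 3 and 51.4% in replicate 4. In the same order, the gene Rn45s took 4.94%, 9.21%, 13.6% and 18.6% of the reads on genes. WT replicate 2 had a share of 20.6% and a median level of 107%. A link between that share and the levels was not tested. KO replicate 4 was below the WT range for 7 of the 9 genes and had the lowest level of all mice for 4. KO replicate 2 was below the WT range for 6 genes but above it for the 3 effector genes Gzma, Nkg7 and Ccl5.

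Since every KO mouse was below every WT mouse for Klre1, Il18r1 and Samd3, leaving out a mouse can change the size of their difference but not its direction. Without KO replicate 4 their fitted log2 fold changes were -0.81, -0.73 and -0.91, and without KO replicate 3 they were -0.97, -0.88 and -1.19. Without KO replicate 1 they were -1.30, -0.95 and -1.09, and Klrd1 and Il2rb then no longer overlapped either, which made 5 genes. Such a count can grow but not shrink when a mouse is left out.

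**Figure D3:**
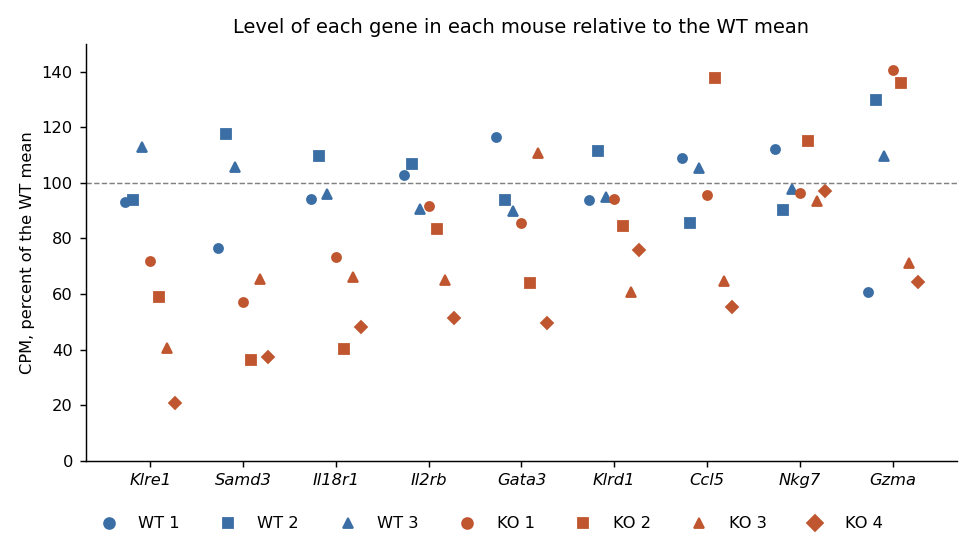
Level of each gene in each mouse as a percentage of the WT mean (vertical axis), with the genes ordered by fitted log2 fold change and the WT mean drawn as a dashed line at 100. The KO mice (orange) lie between 20.6% and 71.9% for Klre1 but spread to both sides of the line for Ccl5, Nkg7 and Gzma.

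Within genotypes more pairs of the 9 genes varied together than apart, but not all did. Each gene's log2 level was taken as its deviation from the mean of its genotype, and the deviations of the 36 pairs of genes were correlated over the 7 mice, which share library and depth. The Pearson correlation was above 0 for 27 of the 36 pairs, with a median of 0.27, beside -0.0007 for pairs of all other tested genes. It was highest for Klre1 with Il2rb, at 0.90, and for Il18r1 with Samd3, at 0.85. It was lowest for Nkg7 with Samd3, at -0.80, and for Nkg7 with Il18r1, at -0.71. The genes whose deviations were most like those of the summed level were 1700025G04Rik, Ggnbp1 and Tmem60, with correlations of 0.996, 0.982 and 0.976 over the 7 mice, and 19 of 11256 genes exceeded 0.95. With 7 mice such values are a description.

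Genes of NK and innate lymphoid cells outside the 9 were read from lists by function, 149 genes in all, of which 148 had a row and 118 passed the filter. None was past an adjusted p of 0.25 in edgeR's quasi-likelihood test in either direction, and the smallest adjusted p was 0.999. At an unadjusted p under 0.05 there were 6 genes, where 3.63% of all tested genes were, and DESeq2 placed none past 0.25. Of the 118 genes, 77 had a fitted log2 fold change below 0 and 41 above, with a median of -0.14, which was -0.07 without KO replicate 4 and -0.08 without KO replicate 3, WT replicate 1 or WT replicate 2. The median was -0.16 over the 67 genes that other marrow cells seldom use, 49 of them below 0, and -0.04 over the 51 that other marrow cells also use, 28 of them below 0. The levels did not overlap for 3 genes that were lower in KO, Gzmb, Gzmm and Hpgds, and for 1 that was higher, Cx3cr1, where 2.79% and 2.37% of all tested genes were lower and higher without overlap, so that both counts were near or under the background. Hpgds, a prostaglandin synthase of ILC2 and mast cells, was named after its values had been seen.

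**Figure D4:**
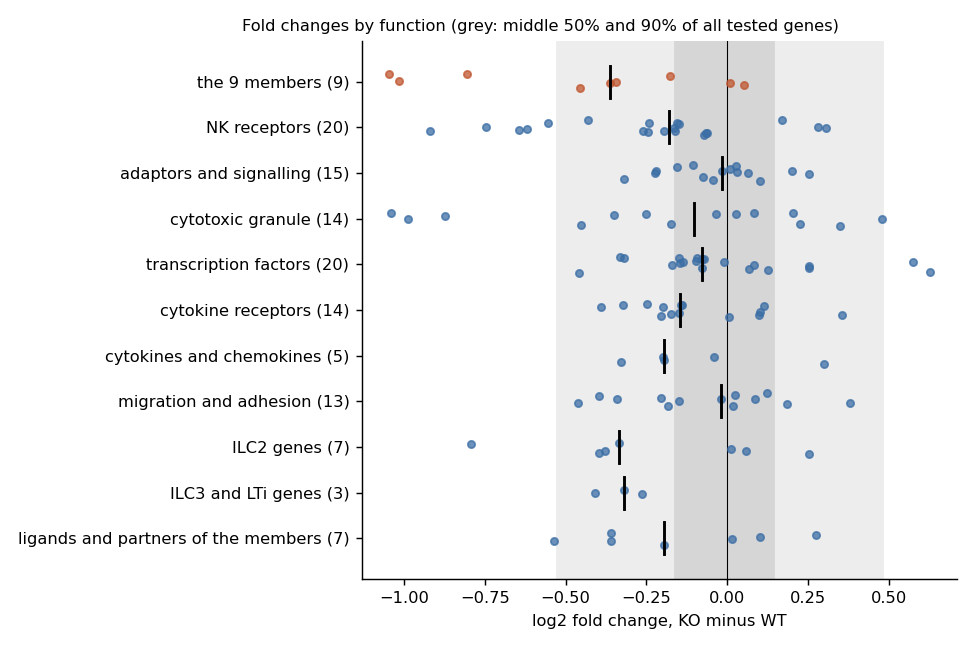
Fitted log2 fold changes of KO over WT (horizontal axis) for the 9 genes named (orange) and the tested genes of 10 lists by function (blue), 1 point per gene, with the median of each list as a black line, the number of genes in brackets, and the middle 50% and 90% of all tested genes as grey bands. The points of the 20 NK receptors lie mostly left of 0, with a median of -0.18, whereas those of adaptors and signalling are centred at -0.02.

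Of the 30 NK receptor genes, 20 were tested, 17 with a fitted log2 fold change below 0 and 3 above, a median of -0.18. Of all tested genes, 50.2% were below 0. None of the 20 was without overlap between genotypes. All genes of the list summed to 311 to 375 CPM in WT and 231 to 361 CPM in KO mice. Klrc1, which encodes NKG2A, the inhibitory partner of CD94, had 64.7, 79.2 and 46.2 CPM in the WT mice and 58.9, 35.1, 38.7 and 29.2 CPM in the KO mice, with overlap through KO replicate 1. Klrk1, the activating receptor NKG2D, lies 11548 bases from Klrd1 and had 39.5, 34.2 and 20.7 CPM against 20.8, 23.7, 19.1 and 11.2 CPM. For Klra7, a Ly49 receptor of a multigene family whose reads may be shared with near copies, the levels were 6.14, 13.7 and 16.7 CPM against 6.41, 6.44, 4.67 and 8.22 CPM. Their fitted log2 fold changes were -0.64, -0.75 and -0.92, each with an adjusted p = 0.999 in edgeR's quasi-likelihood test. Klrc2, the activating partner NKG2C, had at most 3 reads and was not tested. H2-T23, which encodes the CD94 ligand Qa-1, was 4.90 ± 2.98 CPM (SD, n = 3) in WT and 3.79 ± 2.22 CPM (SD, n = 4) in KO mice.

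In contrast to Klre1, Ncr1 overlapped between genotypes, and the difference between the genes was not tested. Ncr1 had 19.1, 16.5 and 15.7 CPM in the WT mice and 26.8, 21.8, 8.22 and 7.97 CPM in the KO mice. KO replicates 1 and 2 were thus above all WT mice and replicates 3 and 4 below them. Klrb1c had 48.3, 49.8 and 51.3 CPM against 53.6, 46.5, 29.7 and 38.6 CPM, again with replicate 1 above the WT mice and replicates 3 and 4 lowest. In KO replicate 1, where Ncr1 and Klrb1c were above every WT mouse, Klre1, Il18r1 and Samd3 were below every WT mouse. Klre1, Il18r1 and Samd3 were chosen with this genotype difference in view, so nothing is read from the contrast. The fitted log2 fold changes of Ncr1 and Klrb1c were -0.07 and -0.24, with an adjusted p = 0.999 for each in edgeR's quasi-likelihood test. With 1 mouse left out that of Ncr1 ranged from -0.43 to 0.15, so that its sign depended on the mice, and that of Klrb1c from -0.38 to -0.10. Of the transcription factors of NK cells, Tbx21 was 31.7 ± 6.87 CPM (SD, n = 3) and 28.4 ± 8.47 CPM (SD, n = 4) and Eomes was 12.5 ± 1.22 CPM (SD, n = 3) and 11.1 ± 5.84 CPM (SD, n = 4), both with overlap. Tox, a factor of early NK cell development, was 20.9 ± 7.81 CPM (SD, n = 3) and 15.1 ± 2.70 CPM (SD, n = 4), also with overlap, and Zbtb16, which encodes PLZF, was 29.2 ± 8.38 CPM (SD, n = 3) and 35 ± 2.12 CPM (SD, n = 4). Of the 20 transcription factor genes tested, 13 were below 0 and 7 above, with a median of -0.08.

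Of the 14 granule genes tested beside Gzma and Nkg7, 8 were below 0 and 6 above, with a median of -0.10. Gzmb, the granule protease that activates caspases, had 8.56, 7.84 and 9.57 CPM in the WT mice and 5.83, 3.12, 3.36 and 4.48 CPM in the KO mice. The genotypes did not overlap, at 28 to 39 reads in WT and 15 to 30 in KO mice, and the fitted log2 fold change was -1.04 (SE 0.39, adjusted p = 0.999 in edgeR's quasi-likelihood test). Gzmm, at 7 to 21 reads per mouse, had 4.37 ± 0.82 CPM (SD, n = 3) and 2.19 ± 0.78 CPM (SD, n = 4). Serpinb9, the inhibitor that protects a killer cell from its own granzyme B, was 12.7 ± 5.15 CPM (SD, n = 3) and 6.92 ± 2.01 CPM (SD, n = 4), with overlap. The proteoglycan core Srgn, which packs granules in many marrow cells, was 624 ± 77.2 CPM (SD, n = 3) and 609.9 ± 96.0 CPM (SD, n = 4).

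Of the 14 further cytokine receptor genes tested, 9 were below 0 and 5 above, with a median of -0.15. Il2rg, the common gamma chain that signals with Il2rb, was 89.0 ± 23 CPM (SD, n = 3) in WT and 77.5 ± 27.2 CPM (SD, n = 4) in KO mice. Il15ra, which presents IL-15 to cells with Il2rb, was 14.4 ± 1.82 CPM (SD, n = 3) and 15.5 ± 7.96 CPM (SD, n = 4). Il15 itself was 16.8 ± 2.66 CPM (SD, n = 3) and 20.3 ± 3.70 CPM (SD, n = 4), and Il18 was 8.35 ± 4.55 CPM (SD, n = 3) and 9.06 ± 1.11 CPM (SD, n = 4). The ligands of the lower receptors thus overlapped between genotypes, and of 7 ligand and partner genes 4 were below 0 and 3 above, with a median of -0.20. Ifng, the interferon gamma gene that IL-18 induces in NK cells, was 11.4 ± 3.09 CPM (SD, n = 3) and 11.1 ± 4.45 CPM (SD, n = 4). Of the 5 cytokine and chemokine genes tested, 4 were below 0, with a median of -0.20.

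Genes of adaptors and signalling were balanced, 8 below 0 and 7 above among 15, with a median of -0.02, as were those of migration and adhesion, 7 below 0 and 6 above among 13, with a median of -0.02. Hcst, which encodes the adaptor DAP10 of NKG2D, was 101 ± 8.01 CPM (SD, n = 3) and 103 ± 9.42 CPM (SD, n = 4). Cx3cr1, a chemokine receptor of monocytes and mature NK cells, had 147, 147 and 118 CPM in the WT mice and 183, 197, 186 and 149 CPM in the KO mice. All KO mice were above all WT mice, and the fitted log2 fold change was 0.38 (SE 0.14, adjusted p = 0.999 in edgeR's quasi-likelihood test). Of 7 tested ILC2 genes 4 were below 0 (median -0.33), and all 3 tested genes of group 3 cells were (median -0.32). Zfpm1, which encodes the GATA factor partner FOG1, was 43.9 ± 13.1 CPM (SD, n = 3) and 38.5 ± 20.2 CPM (SD, n = 4).

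Marker lists of other marrow cells were read in the same fit, since several use the 9 genes. Of 64 tested genes in 7 lists, 40 were below 0 and 24 above, with a median of -0.09 that was -0.27 without KO replicate 4 and -0.028 without KO replicate 2, and none was past an adjusted p of 0.25 in edgeR's quasi-likelihood test, while DESeq2 placed 2 past 0.25, C1qc and Dntt, where it placed 0.194% of all. An unadjusted p under 0.05 was found for 12 of the 64, where 3.63% of all tested genes had one, and 8 were lower in KO without overlap, where 2.79% of all were, 6 of them genes of resident macrophages. The 11 tested T cell genes, with 5 below 0 and a median of 0.08, summed to 208 to 210.2 CPM in the WT mice and to 264, 217, 157 and 155 CPM in the KO mice. KO replicates 3 and 4 were the low mice here as in the summed level of the 9 genes. Of 9 tested genes of resident macrophages 8 were below 0, with a median of -0.58, and all genes of that list summed to 373 to 428 CPM in WT and 269.9 to 311 CPM in KO mice, without overlap. For example, C1qc, a complement gene of macrophages, was 34.4 ± 2.56 CPM (SD, n = 3) and 17.2 ± 1.12 CPM (SD, n = 4), with an adjusted p = 0.322 in edgeR's quasi-likelihood test.

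Of 8 tested genes of basophils and mast cells 7 were below 0, with a median of -0.33, and all genes of the list summed to 3474 to 3928 CPM in WT and 2352 to 3656 CPM in KO mice. These cells also use Il18r1, Il1rl1 and Gata2. Of 8 early lymphoid genes 6 were below 0, with a median of -0.30, and the list summed to 789.8 to 902 CPM in WT and 719 to 888 CPM in KO mice. B cell genes (median -0.01) summed to 135 to 329 CPM in WT and 158 to 489.8 CPM in KO mice, and plasmacytoid dendritic cell genes (median -0.004) to 2335 to 2836 CPM and 2212 to 2831 CPM. Megakaryocyte and platelet genes (median 0.04) summed to 281 to 440.3 CPM in WT mice and to 155, 240.01, 222 and 1014 CPM in KO mice, so that the mouse with the lowest summed level of the 9 genes had the highest level of platelet genes. The part of any of these cell types in the levels of the 9 genes was not tested.

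**Figure D5:**
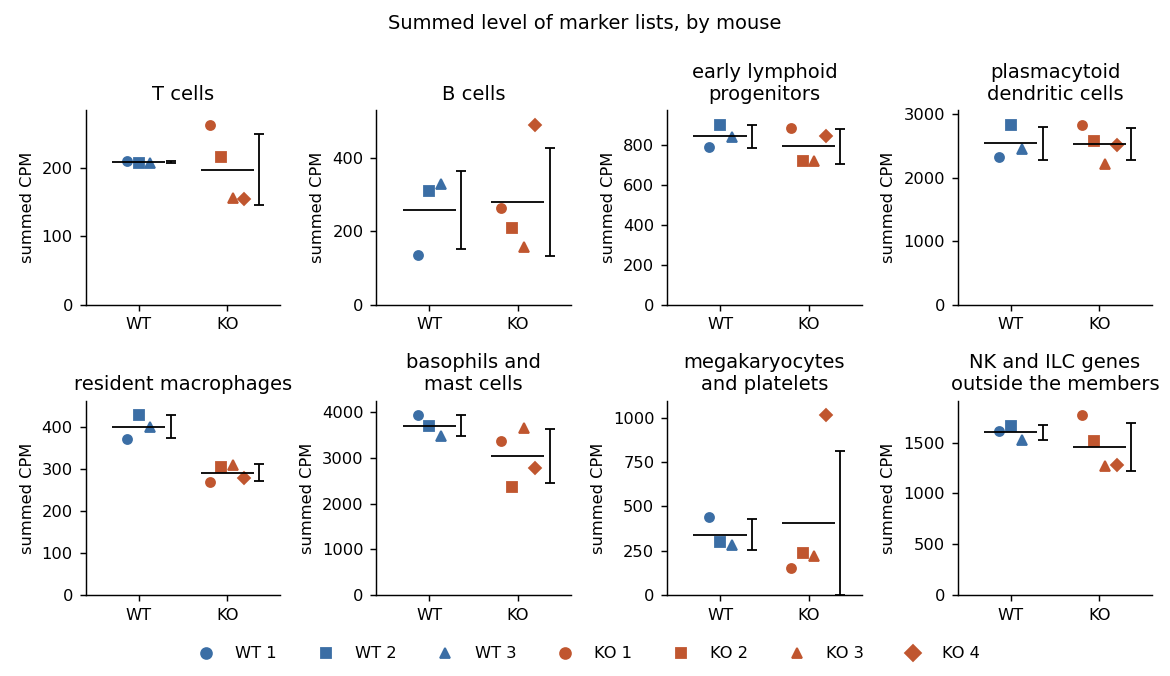
Summed level in CPM (vertical axes, each from 0) of marker genes of 7 other cell types and of the NK and innate lymphoid genes outside the 9 that other marrow cells seldom use, by mouse, with the mean as a line and the SD as a bar (drawn down to 0 where it would fall below). WT (blue) and KO (orange) mice separate for resident macrophages, KO replicate 4 stands at 1014 CPM for megakaryocytes and platelets, and KO replicates 3 and 4 are lowest for T cells and for the NK and innate lymphoid genes.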

How the data were processed

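RNA of lin- bone marrow cells of 3 WT and 4 KO mice was measured as 3′ end libraries from 500 ng of total RNA, sequenced as single 75 bp reads. Alignment by the authors was to GRCm38 with STAR, and the authors deposited raw counts per gene symbol, 1 file per mouse. Their methods name STAR for the counting on the Ensembl annotation, whereas the files end in 5 tally rows in the layout of another counter, and the strand counted is not stated, so reads of a gene and an overlapping antisense gene cannot be told apart. Reads on no gene, 27.0% to 31.6%, were left out with the other tally rows, and Rn45s took 4.94% to 20.6% of the reads on genes.

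TMM factors, CPM, the filterByExpr filter (11265 genes kept) and the robust quasi-likelihood test were computed with edgeR 4.0.16 (R 4.3.3), with SEs of fold changes taken from the F statistics (absolute log2 fold change over the root of F). A gene was called at an adjusted p under 0.25, the study's threshold, and both genes called were also under 0.05. Within a genotype, all pairs of libraries exceeded sampling noise. The 3-read floors and the coefficients of variation from counting cover counting error only, whereas SDs and SEs include differences between mice. The replicates are separate mice by the labels.

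The 9 genes and all gene lists were chosen with earlier results of these data known. Named are the 9 genes, the example genes marked in the lists, list genes called, Hdgfl2, Rn45s, the 3 genes most like the summed level, markers of the labelled cells (Mpo, Kit and Gata2), and Xist and Ddx3y as checks of the libraries. Klri1, Klri2 and Hpgds were named after their values were seen, and Il5 was also named outside this rule. Zfp683, Trac, Trbc1, Trbc2 and Ighm were not analysed here. Coordinates are those of GENCODE M21. Alternatives were DESeq2 1.42.0, other scaling factors and filters, Rn45s left out, the replicate number as a block and each mouse left out. The scripts were tested on simulated data.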

Additional observations from a re-analysis of the deposited data

Results flagged for a closer look

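Among 78 results looked at in the 4 KO mice, 8 had a mouse whose distance to its nearest neighbour, as a share of the whole range, was above Dixon's 95% critical value for 4 samples, where chance gives about 3.9 (1 in 20). That figure takes the 78 results as independent and normally distributed, which genes read in the same mice need not be. KO replicate 2 was apart for 3 of the 8. Nkg7 was 338 CPM there against 274 to 285 CPM in the other KO mice, Serpinb9 was 3.95 CPM against 7.66 to 8.36 CPM, and Il2ra, the high-affinity IL-2 receptor chain, was 1.25 CPM against 4.86 to 5.48 CPM.

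KO replicate 4 was apart for the other 5. Tbx21, which encodes T-bet, was 15.7 CPM against 31.8 to 33.4 CPM, and the T cell coreceptor gene Cd8a was 15.4 CPM against 22.3 to 23.3 CPM. Others were high in that mouse, Zfpm1 at 68.5 CPM against 25.8 to 32.5 CPM, Pf4 at 572 CPM against 20.8 to 109 CPM and Ppbp, another platelet chemokine gene, at 87.7 CPM against 3.11 to 8.41 CPM.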

How the results depend on the processing

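The log2 fold changes of Klre1, Il18r1 and Samd3, whose direction the choice of genes fixes, lay between -1.30 and -0.81, -0.95 and -0.67, and -1.19 and -0.88 over 14 alternatives, and the sign of Gzma and Nkg7 depended on the mice included. The number of the 9 genes with no overlap, 3, was 3 to 5 with 1 mouse left out (5 without KO replicate 1), and their median log2 fold change, -0.36, lay between -0.47 and -0.32. The 2 genes called over all genes became 41 with no filter on low counts, 21 with DESeq2, 1 with at least 10 reads in every mouse and 2 to 7 with 1 mouse left out (7 without WT replicate 1, 4 without KO replicate 1). Without the filter, Klre1, Il18r1 and Samd3 were among the 41, which carries no weight for genes chosen on this contrast. No NK or innate lymphoid gene outside the 9 was called under any alternative, and the median of -0.14 ranged from -0.18 to -0.06, with -0.07 without KO replicate 4 and -0.08 without KO replicate 3, WT replicate 1 or WT replicate 2. Of markers of other cells, 0 were called, but 3 with no filter (C1qc, Dntt, Rag1), 2 with DESeq2 and 0 to 1 with 1 mouse left out (Rag1 without WT replicate 1), and their median of -0.09 ranged from -0.27 (without KO replicate 4) to -0.028 (without KO replicate 2). The log2 fold change of Hdgfl2 was -5.62 to -4.86.

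Same-numbered mice did not deviate together: the correlation of their deviations was -0.19 to -0.02 in the 3 pairs, and no mouse correlated best with its own number. Under a replicate block 1 gene was called, the median of the markers of other cells was -0.27 and that of the NK and innate lymphoid genes outside the 9 was -0.06. KO replicate 4 has no counterpart with its number. Depth limits genes such as Gzmm and Prf1, at 21 reads or fewer per mouse.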
